A study of Mus musculus with 2 samples.

Results

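The immediate early transcription factor genes described here are Jun, Junb, Jund, Fos, Fosb, Atf3, Egr1, Ier2, Klf2 and Klf4. They were chosen by name, and each of the 10 symbols matched 1 of the 32285 genes measured. Single-cell RNA was counted in whole blood of wild-type mice given a burn/tenotomy, a burn together with a severed tendon, which is used to induce heterotopic ossification (HO), bone in soft tissue. Blood was enriched for rare nucleated cells with the microfluidic iChip and barcoded on the 10x Chromium platform, and the study looked for circulating mesenchymal progenitor cells (cMPCs) with an HO signature. All barcodes belong to 1 group of 2 libraries, replicate 1 and replicate 2, which share genotype and injury. Strain, age and time after injury are not given in the sources used here, and uninjured blood was not analysed here. The labels do not say whether different mice gave the replicates, and p-values then measure only the spread between these samples, which may be technical.

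Immediate early genes are transcribed within minutes of a stimulus, without prior protein synthesis, because the factors that switch them on already sit in the cell and are activated by phosphorylation. Jun, Junb and Jund pair with Fos, Fosb or Atf3 through leucine zippers to form AP-1 and related dimers, Egr1, Klf2 and Klf4 bind DNA through zinc fingers, and Ier2 is a short nuclear protein. In leukocytes and mesenchymal cells these genes answer growth factors, cytokines and stress. Jund differs from the others in being expressed in many resting cells. Mature red cells have lost their nucleus and reticulocytes no longer transcribe, so the RNA they hold was made earlier.

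The libraries held 1008 and 849 barcodes with 3967318 and 3329292 UMIs (unique molecular identifiers, each standing for 1 captured RNA molecule), and they shared 0 barcode sequences. Haemoglobin genes took 73.5% and 75.1% of the UMIs. Levels are therefore given as UMIs per 1e6 UMIs outside haemoglobin and mitochondrial (mt-) genes, called other UMIs below, of which there were 684967 and 528860. Barcodes were sorted by rules that can overlap. Red barcodes (at least 50% haemoglobin UMIs) numbered 474 in replicate 1 and 373 in replicate 2, Ptprc barcodes (at least 1 UMI of Ptprc, the leukocyte surface phosphatase CD45) 85 and 12, mesothelial/collagen barcodes (at least 2 of Wt1, Muc16, Gpm6a, Col3a1 and Dcn) 32 and 23, and mitochondrial barcodes (over 20% mt- UMIs) 440 and 328, while 22 and 128 met no rule. Median other UMIs per barcode were 721 and 688 in red, 1258 and 553 in Ptprc, 1613.5 and 3157 in mesothelial/collagen, and 39 and 42.5 in mitochondrial barcodes. Of the mitochondrial barcodes, 34 also met the Ptprc rule and 21 the mesothelial/collagen rule. The Ptprc barcodes of replicate 2 held 13364 other UMIs in all, so that 3 UMIs, the limit that a count of 0 allows, equal 224 per 1e6 there, against 18.0 in replicate 1.

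The regulatory letters directly upstream of Jun, Fos and Atf3 are shown because these genes were often found in the same barcodes and because their windows hold an element read by AP-1 and CREB/ATF dimers. Each line gives the 100 bases before the RefSeq start (GRCm38.p6), read 5′ to 3′ on the gene's strand, with the element in capitals.
Jun, chr4:95052223-95052322, minus strand: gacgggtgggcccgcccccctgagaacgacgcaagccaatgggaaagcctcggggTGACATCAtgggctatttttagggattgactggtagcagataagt
Fos, chr12:85473790-85473889, plus strand: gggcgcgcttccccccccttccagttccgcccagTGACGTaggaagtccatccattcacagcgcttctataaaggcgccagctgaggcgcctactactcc
Atf3, chr1:191183334-191183433, minus strand: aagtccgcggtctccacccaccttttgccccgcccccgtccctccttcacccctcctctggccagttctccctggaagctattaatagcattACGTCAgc
The element of Jun, TGACATCA, spans bases 45 to 38 before the start. That of Fos, TGACGT, spans bases 66 to 61, and Atf3 carries the same letters on the other strand at bases 8 to 3, partly inside the first exon of a GENCODE M21 transcript that starts further upstream. In the 250 bases before the start, on both strands, TGACGT was found in 2 of the 8 members searched and in 6.47% of 32851 mouse promoters of the same length, and TGACATCA in 1 of the 8 and in 2.93%. GGGCGG, the letters bound by Sp1 and KLF-type zinc fingers, was found in 6 of the 8 and in 32.7% of promoters, and TATAAA in Fos alone of the 8 and in 12.4%. The AP-1 letters TGANTCA were found in 0 of the 8 and in 6.75% of promoters, and the CArG box bound by serum response factor in 0 of the 8 and in 1.47%. The RefSeq start used for Jund lies upstream of its GENCODE M21 start, so its window is for that other start. Egr1 and Ier2 were not among the 8 members searched. Letters more than 250 bases before a start were not searched either, so a count of 0 holds for these windows only. The matches describe letters in a window and say nothing of binding in these cells.

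The members held 1143 UMIs in replicate 1 and 697 in replicate 2, and Jund alone gave 812 of the 1840. Jund was found in 415 of 1857 barcodes, Klf2 in 52, Jun and Junb in 38 each, Ier2 in 32, Atf3 in 29, Klf4 in 28, Fos in 23, Egr1 in 18 and Fosb in 14. Jund was thus spread over many barcodes at 1 or a few UMIs each, and the other 9 members lay in few. At least 1 member was found in 34.6% and 37.3% of red barcodes, 78.8% and 41.7% of Ptprc barcodes, 59.4% and 78.3% of mesothelial/collagen barcodes, and 7.5% and 5.79% of mitochondrial barcodes (replicate 1 and replicate 2). At least 2 members were found in 0.211% and 0% of red barcodes, 45.9% and 25% of Ptprc, 37.5% and 43.5% of mesothelial/collagen, and 2.5% and 0.610% of mitochondrial barcodes. Red barcodes thus often held 1 member, in both libraries, but almost never more than 1. These shares move with depth: the expected share with at least 2 members after thinning every barcode to 200 other UMIs (shallower barcodes left out) was 0.00662% in red, 5.25% in Ptprc, 7.01% in mesothelial/collagen and 1.53% in mitochondrial barcodes.

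**Figure D1:**
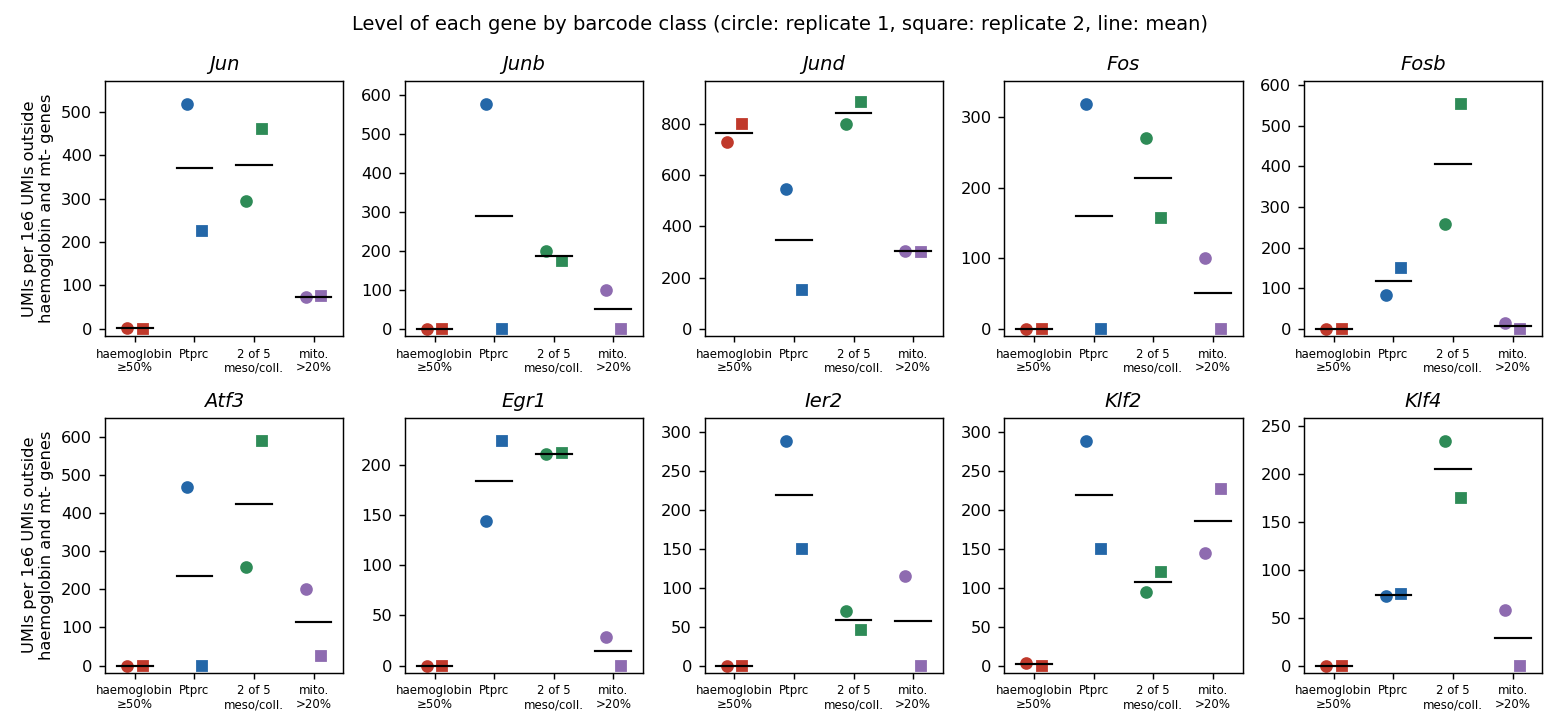
Level of each member (y axis, UMIs per 1e6 UMIs outside haemoglobin and mt- genes, linear and on a separate scale for each gene) in the 4 barcode classes (x axis); circles are replicate 1, squares replicate 2 and lines their mean. Jund is high in red barcodes of both replicates, where the other 9 genes lie at or next to 0.

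**Figure D2:**
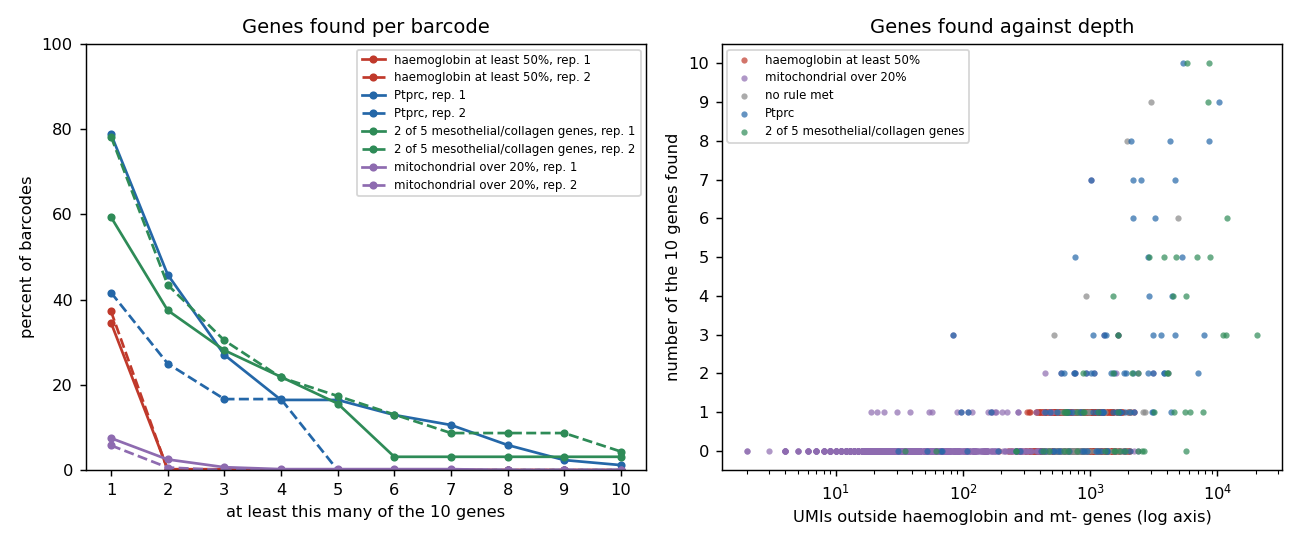
Left, percent of barcodes (y axis) in which at least the given number of the 10 genes (x axis) was found, by class and replicate; right, number of the 10 genes found in each barcode (y axis) against its UMIs outside haemoglobin and mt- genes (x axis, log scale). Red barcodes stop at 1 gene except for 1 barcode with 3, and the barcodes with 5 or more genes are Ptprc, mesothelial/collagen and unclassed barcodes with 762 to 11877 such UMIs.

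The red barcodes held Jund, the AP-1 subunit that is least dependent on a stimulus, and almost none of the rest. Jund gave 272 UMIs in 164 of 474 red barcodes of replicate 1 (34.6%, exact Clopper-Pearson 95% interval 30.3 to 39.1) and 227 UMIs in 139 of 373 of replicate 2 (37.3%, 32.3 to 42.4). Its level was 764 ± 48.7 per 1e6 other UMIs (SD, n = 2), against 348.6 ± 281 in Ptprc, 841 ± 60.9 in mesothelial/collagen and 302 ± 1.01 in mitochondrial barcodes. Most positive red barcodes held a single Jund UMI (188 of 303), and the highest held 11. The other 9 members together gave 2 UMIs in the red barcodes, 1 of Jun and 1 of Klf2, and both lay in the same barcode of replicate 1. That barcode had 54.6% haemoglobin UMIs and also met the Ptprc and the mesothelial/collagen rules.

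Junb, Fos, Fosb, Atf3, Egr1, Ier2 and Klf4 had no UMI in any of the 847 red barcodes (0 of 847, which allows a share of up to 0.354% of barcodes with a UMI, or 4.57 per 1e6 other UMIs over both libraries). Against that floor Junb, the AP-1 subunit that often restrains Jun, was at least 63.2-fold higher in Ptprc barcodes and at least 40.7-fold higher in mesothelial/collagen barcodes. Fos, the classic partner of Jun, was at least 34.9-fold and 45.2-fold higher there, and Atf3, a stress-induced factor of the ATF/CREB family, at least 51.4-fold and 92.8-fold higher. The bounds for Fosb, Egr1, Ier2 and Klf4 in these classes ran from 12.4 (Ier2, mesothelial/collagen) to 88.8 (Fosb, mesothelial/collagen). The bounds use the lower of the mean of the libraries and the level over both libraries pooled. They hold for levels per 1e6 other UMIs only and depend on that scaling. In the tests below, trimmed-mean (TMM) factors were 0.164 and 0.213 for red sums and 1.69 to 3.18 for Ptprc and mesothelial/collagen sums. With such factors the bounds would be smaller. For Junb, Fos and Atf3 the Ptprc bounds use the mean and rest on replicate 1, since all 3 had 0 UMIs in the Ptprc barcodes of replicate 2. The median depth of red barcodes, 706 other UMIs, was below the 1258 and 1871 of the Ptprc and mesothelial/collagen classes over both libraries.

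Jund in red barcodes did not follow how far haemoglobin filled the barcode when counted by barcode, but did so by level. It was found in 182 of 512 red barcodes with 50 to 90% haemoglobin (35.5%, 31.4 to 39.9) and in 121 of 335 with at least 90% (36.1%, 31.0 to 41.5). Its level was 639 and 707 per 1e6 other UMIs in the first set (replicate 1 and replicate 2) and 904 and 944 in the second, so the sets did not overlap, and the difference was not tested. On all UMIs, haemoglobin included, the order turned, with 110 and 125 per 1e6 in the first set and 62.0 and 58.5 in the second. Thinned to 200 other UMIs, 13.2% of red barcodes were expected to hold Jund, beside 8.79% of Ptprc, 13.3% of mesothelial/collagen and 6.65% of mitochondrial barcodes. The make-up of the Jun family thus differed by class: Jund and Jun had 499 and 1 UMIs in red barcodes, and 93 and 89 in Ptprc barcodes.

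For tests, barcodes that met more than 1 of these rules were given to a single class or left out (155 barcodes, mostly those that met no rule, entered no sum), UMIs were summed per class and library, and the 8 sums were compared with edgeR's quasi-likelihood test over 2982 genes with the library as a block. All 10 members passed the filter on low counts, which asks for enough UMIs in at least 2 of the 8 sums. The spread was wholly the one shared across genes, so how much a given member varied from library to library hardly enters its p. All 3 comparisons use the same Ptprc sums, 81 barcodes of replicate 1 and 12 of replicate 2.

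Of the members, 1 was called higher (Jund) and 8 lower in red than in Ptprc barcodes at an adjusted p under 0.05, where 15.9% of all genes tested were called higher and 41.9% lower. The 8 called lower were Atf3, Jun, Fosb, Klf2, Ier2, Junb, Fos and Egr1, all at 0 UMIs in both red sums, with edgeR adjusted p from 8.42e-05 (Jun) to 0.0191 (Fosb). Genes at 0 in the red sums could pass the filter only through the sums of other classes, so their direction in this comparison was largely set by the filter, and the count of 8 is a description. Klf4, a zinc finger factor of monocytes and epithelia, was also at 0 in the red sums and had an edgeR adjusted p of 0.0678. Jund was at 723 and 799 per 1e6 other UMIs in the red sums and at 528 and 150 in the Ptprc sums. Its log2 fold change was 4.42 (SE 0.75, edgeR adjusted p = 3.62e-08), beside a median of -2.90 over all genes. The size and the direction of the Jund difference turned on the scaling: with library size alone it was 0.87 (adjusted p = 0.148, not called), and with total UMIs, haemoglobin and mt- genes kept, it was -1.87 (adjusted p = 0.00466, called lower). Per 1e6 of all UMIs, Jund was at 82.7 in red and 430 in Ptprc barcodes of replicate 1, and at 82.3 and 78.0 in replicate 2. It was thus lower in red barcodes in replicate 1. The Ptprc value of replicate 2 rests on 2 UMIs from 12 barcodes, too few to show a direction there. Red sums had trimmed-mean (TMM) factors of 0.164 and 0.213, and the other sums 1.28 to 3.18. Of all genes called, 27.5% were higher in red, against 10.2% with library size alone and 2.12% with total UMIs. DESeq2 called 1 member higher and 6 lower.

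In Ptprc barcodes Jun, Junb, Atf3 and Fos were all found in replicate 1, and Junb, Atf3 and Fos had no UMI in the few barcodes of replicate 2. Jun had 86 UMIs in 18 of 85 barcodes of replicate 1 and 3 UMIs in 3 of 12 of replicate 2, which is 517 and 224 per 1e6 other UMIs. Junb had 96 UMIs in 21 barcodes of replicate 1, Atf3 78 in 18 and Fos 53 in 13, and each had 0 UMIs in the 12 barcodes of replicate 2. Their levels in replicate 1, 578, 469 and 319 per 1e6, lie above the 224 that a count of 0 allows in replicate 2. Ier2, a short nuclear protein that follows serum stimulation, had 48 UMIs in 22 barcodes of replicate 1 and 2 in 2 of replicate 2. Klf2, the factor that keeps lymphocytes quiescent and in circulation, was the most widely found of the 9 members other than Jund, with 48 UMIs in 31 barcodes of replicate 1 (36.5%) and 2 in 2 of replicate 2. Egr1 (24 and 3 UMIs), Fosb (14 and 2) and Klf4 (12 and 1) were sparse in both libraries.

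The Ptprc barcodes differed in their members by the leukocyte markers they carried. Barcodes led by B cell markers (such as Cd79a, Ms4a1, Ebf1 and Pax5) were the most numerous of those led by a marker list, 35 of 97, and held 952 member UMIs per 1e6 other UMIs. They had 0 UMIs of Fos and 0 of Atf3 among 67214 other UMIs (up to 44.6 per 1e6), 28 of Jund and 11 of Klf2. The 13 barcodes led by monocyte or macrophage markers held 5707 per 1e6, with 54 UMIs of Jun, 53 of Atf3, 36 of Junb and 23 of Fos. Of their 245 member UMIs, 2 barcodes held 78 and 71, with 29 of the Atf3 UMIs in the first and 29 of the Jun UMIs in the second. The 6 led by neutrophil markers held 6219 per 1e6, of which Junb gave 43 UMIs, Jund 27, and Fos and Ier2 14 each, and all of these lay in 3 barcodes. The 4 led by T cell markers held 2549 per 1e6, with 17 UMIs of Jun and 9 each of Fos and Klf2. The 38 barcodes led by no list, at a median of 713.5 other UMIs, held 2813 per 1e6, with 17 UMIs of Atf3, 14 of Jund and 7 of Fos. Jun, Junb, Fos, Fosb and Atf3 were thus all lower per 1e6 in B cell-marker than in monocyte-marker barcodes, while Jund was close in both (417 and 489). All monocyte, neutrophil and T cell-marker barcodes were in replicate 1, where 30 B cell-marker barcodes held 895 per 1e6, so this order was seen within 1 library and was not tested. The summed level of the B cell markers was 5926 and 13918 per 1e6 in the Ptprc barcodes of replicate 1 and replicate 2, that of the 7 monocyte markers 1233 and 449, and that of the 6 neutrophil markers 28934 and 74.8. In replicate 2 all monocyte markers except Cybb and all neutrophil markers except S100a9 were at 0. The part of this make-up in the comparisons with the Ptprc sums was not tested.

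Mesothelial/collagen barcodes held 3031 ± 483 member UMIs per 1e6 other UMIs, and Ptprc barcodes 2216 ± 1546 (SD, n = 2). Within the mesothelial/collagen class, 22 barcodes led by mesothelial markers held 3259 per 1e6, 3 led by epithelial markers 7277, and 21 led by no list 1839. Of the 158 member UMIs of the 3 epithelial-marker barcodes, 122 lay in 1 barcode. That barcode had 5 UMIs each of epithelial and mesothelial markers, and only the order of the lists placed it with the epithelial ones. The level of the epithelial-marker barcodes thus rests largely on this placement. The 8 led by fibroblast markers held 754, with 0 UMIs of Fos, Fosb, Atf3, Ier2 and Klf4 among 26538 other UMIs. Their median depth was 1722.5 other UMIs, against 2582 in the mesothelial-marker barcodes. Ier2 had only 11 UMIs in the whole class, so its 0 says little. Single barcodes held 147, 122 and 118 of the 595 member UMIs of the class. These differences were not tested. Over the whole class, Jund had 68 UMIs in 17 of 32 barcodes of replicate 1 and 96 in 14 of 23 of replicate 2. Jun had 25 and 50 UMIs, Atf3 22 and 64, Fosb 22 and 60, and Fos 23 and 17. Every member was found in both libraries in this class. Egr1, which is induced by serum, growth factors and mechanical load, was at 211 and 212 per 1e6, the closest pair of values of any member in this class. Klf4 was at 235 and 175 per 1e6 and was found in 9 of 32 and 6 of 23 barcodes, against 72.2 and 74.8 per 1e6 in Ptprc barcodes. The last value rests on 1 UMI, in a sum where a count of 0 allows up to 224 per 1e6. Replicate 2 therefore does not show whether these classes differ in Klf4.

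Of the members, 1 was called higher and 0 lower in mesothelial/collagen than in Ptprc barcodes, where edgeR called 16% of all genes higher and 10.8% lower, which is 26.7% in either direction. At an unadjusted p under 0.05 there were 3 higher (Fosb, Klf4, Jund) and 0 lower, and DESeq2 called 0. The member called was Fosb, which encodes an AP-1 subunit with a long-lived splice form: 264 and 553 per 1e6 in the mesothelial/collagen sums and 86.0 and 150 in the Ptprc sums, a log2 fold change of 2.03 (SE 0.75, edgeR adjusted p = 0.0280). It rests on few barcodes, since 4 mesothelial/collagen barcodes held all 82 Fosb UMIs and 3 of them held 81 (27, 33 and 21). Without the barcode richest in members in each sum, Fosb no longer passed the filter and had no test. Klf4 had a log2 fold change of 1.81 (SE 0.89, edgeR adjusted p = 0.124) and Jund 1.40 (SE 0.70, adjusted p = 0.138), both called with median-ratio factors (adjusted p = 0.0410 and 0.0449). Ier2 was at -1.57 (SE 0.91, edgeR adjusted p = 0.219) and was called lower without the richest barcodes (-2.71, adjusted p = 0.0422). The median over the 10 members was 0.62 and over all genes 0.08. Of all genes called, 59.7% were higher, against 49.6% with library size alone and 72.8% with TMM on all genes.

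**Figure D3:**
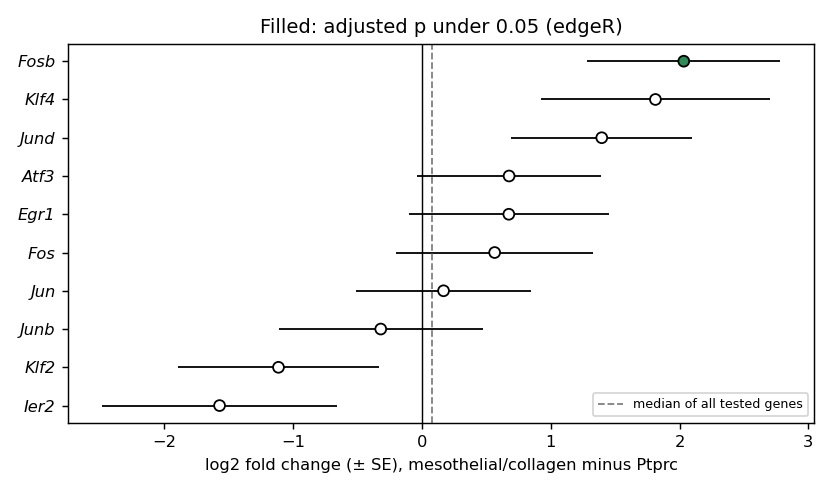
Log2 fold change of each member between mesothelial/collagen and Ptprc sums (x axis, points with SE bars from edgeR; genes on the y axis; the dashed line is the median of all genes tested). Fosb is the filled point, the only member with an adjusted p under 0.05 in this fit, and Ier2 and Klf2 lie lowest.

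Within the mesothelial/collagen and the Ptprc class, members were lower in both libraries in barcodes with more mitochondrial RNA, which also were shallower. Mesothelial/collagen barcodes with at most 20% mt- UMIs held 3169 member UMIs per 1e6 other UMIs in replicate 1 and 3651 in replicate 2 (median depth 4276 over both), and those above 20% held 217 and 686 (median depth 664). Ptprc barcodes with at most 20% held 3405 and 1235, and those above held 2706 and 493, the last resting on 1 UMI. The values of the 2 kinds did not overlap among mesothelial/collagen barcodes and did among Ptprc barcodes. These differences were not tested, and depth and mitochondrial share cannot be told apart here. Sums from barcodes with at most 20% gave the same call for mesothelial/collagen against Ptprc barcodes, 1 member higher and 0 lower.

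The mitochondrial barcodes held few members for their number: 79 UMIs in 33 of 440 barcodes of replicate 1 and 25 in 19 of 328 of replicate 2. Of these 104 UMIs, 63 lay in the 34 barcodes that also had Ptprc. The 713 mitochondrial barcodes that met no other rule held 31 member UMIs, of which Jund gave 17 and Klf2 7, while Fosb, Egr1, Ier2 and Klf4 gave 0. Their median depth was 36 other UMIs, so absence from a barcode says little. Of the members, 0 were called higher and 3 lower in their sums than in the Ptprc sums, where 16.7% of all genes were called higher and 3.99% lower. At an unadjusted p under 0.05 there were 0 higher and 6 lower, and DESeq2 called 0. The 3 were Jun (1 and 1 UMIs against 85 and 3, log2 fold change -2.99, SE 1.08, edgeR adjusted p = 0.0320), Junb (1 and 0 UMIs against 96 and 0, -3.75, SE 1.29, adjusted p = 0.0224) and Ier2 (0 and 0 against 48 and 2, adjusted p = 0.0257). Genes this low in the mitochondrial sums could pass the filter only through the sums of other classes. Their direction was thus largely set by the filter, and the count of 3 is a description. Each of the 3 calls was lost with TMM on all genes (edgeR adjusted p 0.0591 to 0.0977). Of all genes called, 80.7% were higher, against 91.2% with TMM on all genes, 61.3% with median-ratio factors, 46.9% with library size alone and 2.45% with total UMIs.

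Several members were often found in the same barcode. Of all barcodes, 70 held at least 2 members and 26 held at least 5, of which 20 were in replicate 1 and 6 in replicate 2. These 26 barcodes, chosen for holding many members and so bound to be rich in them, held 10.4% of the other UMIs and 866 of the 1028 member UMIs that were not Jund (84.2%). The share of a gene's UMIs that lay in them was highest for Fosb (96.9%), Atf3 (92.9%) and Jun (90.1%), lower for Klf2 (49.4%) and lowest for Jund (19.6%). They were deep, with a median of 4439 other UMIs. At 3000 or more other UMIs, 7 of 19 Ptprc and 8 of 21 mesothelial/collagen barcodes held at least 5 members. At 200 to 1000 other UMIs, 1 of 27 and 0 of 16 did. Barcodes at least as deep as the shallowest of the 26 (762) with fewer than 5 members numbered 512. These include 171 red barcodes with 1000 to 3000 other UMIs. By rule, 14 of the 26 were Ptprc barcodes, all in replicate 1, 9 were mesothelial/collagen barcodes (5 and 4), and 3 met no rule. Of the 14, 7 were led by monocyte or macrophage markers, 3 by neutrophil and 2 by T cell markers. None of the 35 B cell-marker barcodes was among them. Their median mitochondrial share was 4.85%, and 1 of the 26 was above 20%.

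All 10 members were found in 3 barcodes. A mesothelial/collagen barcode of replicate 2 held 122 member UMIs (27 of Fosb, 19 of Jun), one of replicate 1 held 118 (21 of Fosb, 20 of Fos), and a Ptprc barcode of replicate 1 with monocyte or macrophage markers held 71 (29 of Jun, 12 of Egr1). The barcode with most member UMIs, 147, was a mesothelial/collagen barcode of replicate 2 with 44 of Atf3, 33 of Fosb and 29 of Jund but 0 of Ier2. In the Ptprc barcode richest in neutrophil marker UMIs (3294), Jund had 22 and Junb 15 of the 58 member UMIs. The leading member therefore differed from barcode to barcode, also within a class.

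**Figure D4:**
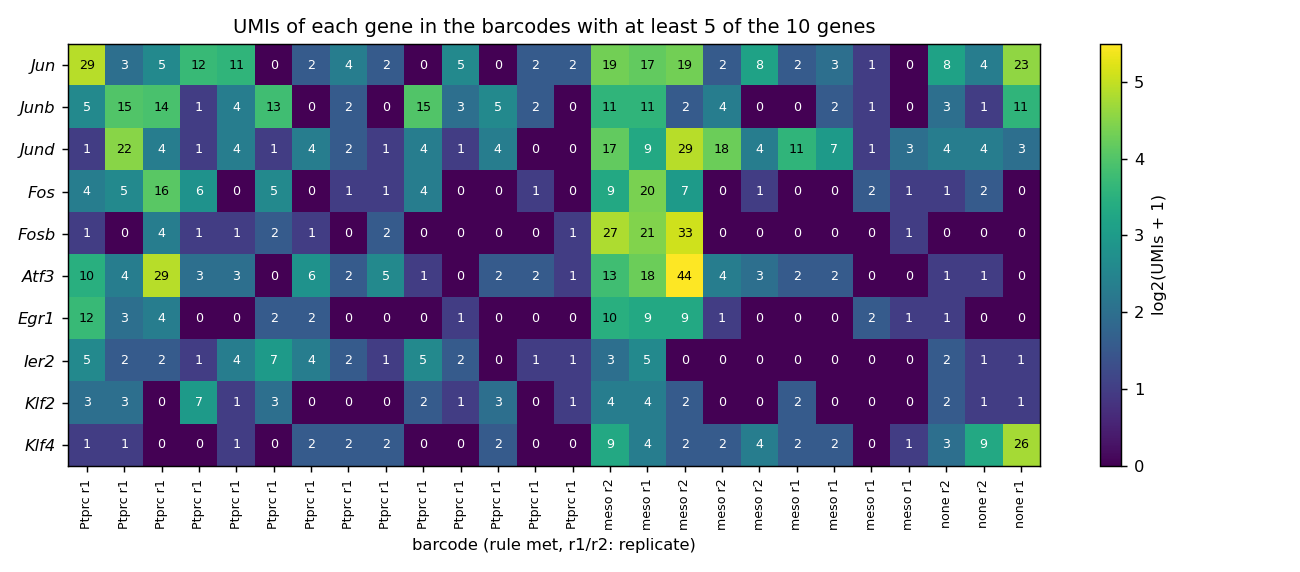
UMIs of each member (y axis) in the 26 barcodes with at least 5 of the 10 genes (x axis, labelled by the rule met and the replicate); colour is log2(UMIs + 1) and the printed digits are UMIs. Fosb is concentrated in 3 mesothelial/collagen barcodes (27, 21 and 33 UMIs), and Jun, Junb and Atf3 recur across both classes.

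Fos, Fosb and Egr1 were never found alone: all 23, 14 and 18 barcodes with them held another member. So did 31 of 32 with Ier2, 27 of 29 with Atf3, 26 of 28 with Klf4, 35 of 38 with Junb, 34 of 38 with Jun and 35 of 52 with Klf2, but only 51 of 415 with Jund. Jun and Atf3, whose proteins can dimerise, shared 20 barcodes, 53% of those with Jun and 69% of those with Atf3, 14 in replicate 1 and 6 in replicate 2. Fos and Atf3 shared 15 (65% and 52%), Jun and Fos 15 (39% and 65%), Jun and Klf4 19 (50% and 68%), and Fosb and Egr1 9 (64% and 50%). Within mesothelial/collagen barcodes all 7 with Atf3 also held Jun, and within Ptprc barcodes 11 of 18 did. These overlaps are described without a test, since the barcodes share depth and library.

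**Figure D5:**
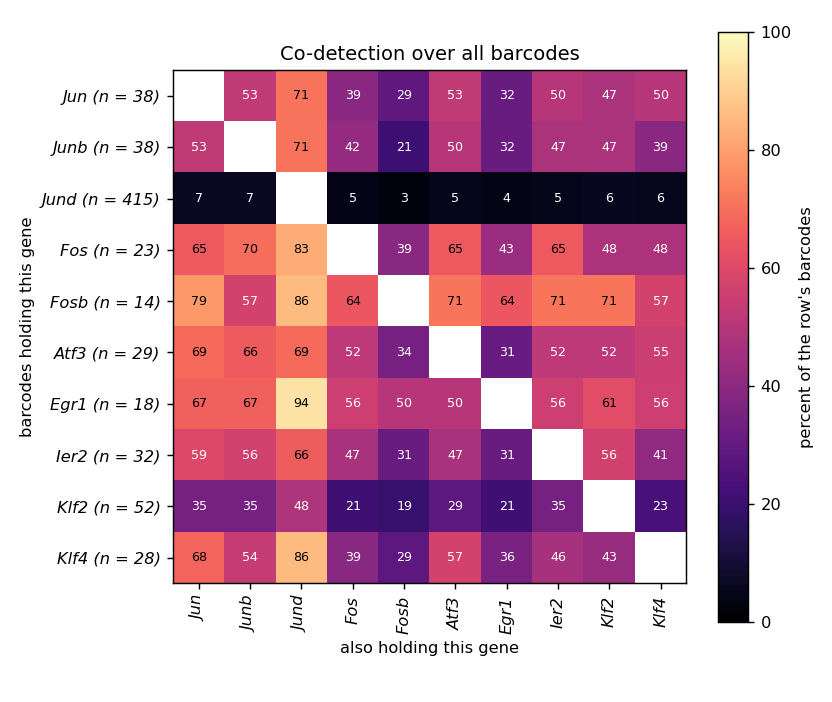
Percent of the barcodes that hold the gene on the y axis (n given) that also hold the gene on the x axis, over all barcodes of both replicates. The Jund line is dark across because 415 barcodes hold it, while 48% to 94% of the barcodes with any other member also hold Jund.

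Of 4852 other genes ranked by how far their barcodes coincide with the 70 barcodes that held at least 2 members, the closest were Mef2a (Jaccard index, the shared over the total barcodes, of 0.495), Nfkbiz (0.493), Ccnl1 (0.489), Son (0.464) and Sf3b1 (0.441). Mef2a, a MADS-box factor, was found in 84 barcodes, of which 51 were among the 70, and in 0 red barcodes. Nfkbiz, an inducible nuclear regulator of NF-kappa-B targets, was found in 42, of which 37 were among the 70. Depth was not taken into account in this ranking, and the index fell slowly, to 0.434 at rank 12 (Usp34). A link of these genes to the members was not tested.

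Other immediate early genes from a list of 30 (29 with a matching symbol) gave too few UMIs for most tests: 7 passed the filter. Against Ptprc barcodes, edgeR called 0 of the 7 higher and 0 lower in mesothelial/collagen barcodes (0 at an unadjusted p under 0.05, and 0 with DESeq2), 5 lower in red barcodes (Btg2, Irf1, Zfp36l1, Klf6 and Nr4a1, beside 41.9% of all genes), and 1 lower in mitochondrial barcodes (Btg2, beside 3.99%). DESeq2 called 3 lower in red and 0 in mitochondrial barcodes. Irf1 and Klf6 were at 0 UMIs in the red sums, so their direction there was largely set by the filter, as for the members. In the mitochondrial sums Btg2 had 2 and 0 UMIs. Btg2, an antiproliferative gene and the most counted of the list, had 203 UMIs in 44 barcodes, of which 21 were among the 26 richest in members. It was at 523 and 74.8 per 1e6 other UMIs in Ptprc and 305 and 608 in mesothelial/collagen barcodes, and at 0 and 3.52 in red barcodes. Nr4a1, an orphan nuclear receptor, was at 397 and 0 per 1e6 in Ptprc and 117 and 46.1 in mesothelial/collagen barcodes.

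Of 25 regulators that act upstream of immediate early genes (MAP kinases, CREB, serum response factor and their partners), 14 passed the filter. In edgeR, 10 of the 14 were lower in red than in Ptprc barcodes and 0 higher, beside 41.9% and 15.9% of all genes (DESeq2 called 7 and 0, and 0 were higher at an unadjusted p under 0.05). Regulators at 0 UMIs in both red sums, among them Mef2a, Mef2d and Atf2, could pass the filter only through the sums of other classes. Their direction was thus largely set by the filter, and the count of 10 is a description. Mef2c, a MADS-box factor of B cells and muscle, was the only one of the 14 called lower in mesothelial/collagen than in Ptprc barcodes, where 10.8% of all genes were, at 58.7 and 82.9 per 1e6 against 1053 and 2095 (log2 fold change -3.84, SE 0.71, edgeR adjusted p = 1.20e-06). Mef2a was at 352 and 387 per 1e6 in mesothelial/collagen and 626 and 299 in Ptprc barcodes, so these values overlapped. Of 12 heat shock genes, 9 passed the filter and 1, Hspb1, was called higher in mesothelial/collagen barcodes (16% of all genes were), at 622 and 617 per 1e6 against 0 UMIs in Ptprc barcodes. With 0 UMIs in the Ptprc sums, Hspb1 could pass the filter only through other sums, so its direction was largely set by the filter. Hspa5, the endoplasmic reticulum chaperone and the most counted of the list, was at 258 and 802 per 1e6 in mesothelial/collagen and 1510 and 1048 in Ptprc barcodes, the other direction, and was not called. The inducible Hspa1b was at 129 and 221 per 1e6 in mesothelial/collagen and 42.1 and 0 in Ptprc barcodes, and 11 of its 13 barcodes were among the 26 richest in members.

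Positions in GENCODE M21 (mm10) bear on how the counts can be read. Jun (chr4:95049034-95052222, minus strand), Jund (chr8:70698949-70700616, plus strand) and Ier2 (chr8:84661331-84662852, minus strand) are annotated as single-exon genes, so intronic reads cannot enter their counts. Junb (chr8:84974484-84978718, minus strand) overlaps Prdx2, a red cell peroxidase gene on the other strand. Prdx2 had 2225 UMIs in red barcodes, where Junb had 0. Junos, on the strand opposite Jun, had 4 UMIs, and Gm11175 and Gm24748, opposite Jund and Atf3, had 0. The sources used here do not give whether the counting used strand. Fos (chr12:85473890-85477273, plus strand), Fosb (chr7:19302696-19310051, minus strand), Klf2 (chr8:72319033-72321656, plus strand) and Klf4 (chr4:55527143-55532466, minus strand) overlap no other annotated gene, and Atf3 spans chr1:191170296-191218039 on the minus strand.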

How the data were processed

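RNA of single barcodes was measured in 2 libraries of 1 group. The deposited matrices hold counts: UMIs of each gene in each barcode, as whole numbers that the authors did not normalize. Cell Ranger 7.1.0 is named in the file headers, and the mm10 build and Seurat 5 in the submitters' processing notes, with no role given. How barcodes were called, whether doublets were removed, and which transcript end was read are not given in the sources used here, and no doublet caller was run. All barcodes were used (lowest 500 and 501 UMIs). The members, gene lists and rules were chosen with earlier results of these data known.

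Levels are UMIs per 1e6 UMIs outside haemoglobin and mt- genes, as mean ± SD of 2 libraries. Shares have exact Clopper-Pearson 95% intervals (scipy 1.17.1), and a floor is 3 UMIs over the group. Intervals and floors cover counting error only. Thinning used the exact hypergeometric expectation. A barcode's leading marker list had most UMIs, at least 5, from at least 3 of its markers. UMI sums of 4 classes in 2 libraries (8 sums) were tested with edgeR 4.0.16 in R 4.3.3 (filterByExpr, TMM on UMIs outside haemoglobin and mt- genes, quasi-likelihood test, Benjamini-Hochberg adjustment over all genes, threshold 0.05). SEs were derived from its F statistic. The library was a block because classes of 1 library share it. DESeq2 1.42.0, other scalings and filters, and leaving out each library were alternatives. The edgeR script was tested on simulated data. Genes beyond the members were named by rule: the 6 of each list with most UMIs and the 5 most alike by Jaccard index among genes with at least 20 UMIs. Outside this rule, Irf1, Mef2d and Atf2 were named after their values were seen, and Usp34 for its rank. Promoters came from RefSeq (GRCm38.p6) and 8 members were searched. Those of Egr1 and Ier2 were not searched and are not shown.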

Additional observations from a re-analysis of the deposited data

How the results depend on the processing

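Counts of members called varied most for the comparisons of mesothelial/collagen and of mitochondrial with Ptprc barcodes. For mesothelial/collagen barcodes, 1 call became 0 with library size alone, with DESeq2 and without a filter on low counts (4, 1 and 1 members at an unadjusted p under 0.05), 3 with median-ratio factors and 2 without the replicate block (Fosb higher, Ier2 lower). For mitochondrial barcodes, 3 calls became 0 with TMM on all genes, with DESeq2 and without a filter (6, 3 and 6 at an unadjusted p under 0.05), 6 with library size alone, 5 with median-ratio factors and 5 without the block, 1 with Ptprc and mesothelial/collagen barcodes of at most 20% mt- UMIs, and 10 with total UMIs. For red barcodes, the count stayed between 7 and 10 under the alternatives run. The scalings by total UMIs, with haemoglobin and mt- genes kept, and the sums without the richest barcodes were chosen after seeing the data. With total UMIs, Jund turned to -1.87 in red and to -3.48 in mitochondrial barcodes. Removing the block changed the calls of Ier2 (mesothelial/collagen), Klf4 (red), Atf3 and Egr1 (mitochondrial) and of no other member. Over all genes, DESeq2 called 352 and 340 genes for mesothelial/collagen and mitochondrial barcodes where edgeR called 797 and 617. Without a filter, edgeR called 169 for mitochondrial barcodes, and with total UMIs 3015 for mitochondrial and 3544 for red, against 1723. The cause was not tested beyond what each alternative changes.

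With 1 library left out no residual degrees of freedom remain, so log2 fold changes are values with no test. Jund in red against Ptprc barcodes was 6.27 without replicate 1 and 3.87 without replicate 2, and Fosb in mesothelial/collagen barcodes 2.74 and 1.66. Genes at 0 UMIs in both sums of the remaining library gave no value. The share of barcodes with at least 2 members, per single library, ran from 0% to 0.211% in red, 25% to 45.9% in Ptprc, 37.5% to 43.5% in mesothelial/collagen and 0.610% to 2.5% in mitochondrial barcodes. As means of the libraries, the shares were 35.4% in Ptprc (52.1% with at least 2 Ptprc UMIs, 10.5% thinned to 500 UMIs, 5.25% thinned to 200 other UMIs), 40.5% in mesothelial/collagen (48.8% with at least 3 of the 5 genes, 12.3% and 7.01% thinned), and 1.55% in mitochondrial barcodes (0.127% at over 50% mt- UMIs, 7.93% with at least 100 genes). Depth limits the mitochondrial barcodes, of which 663 of 768 had under 200 other UMIs, and the Ptprc sum of replicate 2, which came from 12 barcodes.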

Other observations

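Among the 150 barcodes that met none of the rules, 29 held a member and 3 held at least 5. In replicate 2, 2 of them were led by endothelial markers and held 48 member UMIs, 12 each of Jun and Klf4, with 25 UMIs of 9 members in 1 barcode and 23 of 8 members in the other. In replicate 1, 1 barcode led by no marker list held 65 member UMIs among 4949 UMIs outside haemoglobin and mt- genes, of which Klf4 gave 26 and Jun 23, with 0 of Fos, Fosb, Atf3 and Egr1. The 9 barcodes led by platelet markers in this set held 1 member UMI, of Jund.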
